A study of Mus musculus with 12 samples.

Results

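Glucose entry, lactate export and the handling of protons were followed in mouse embryonic fibroblasts (MEFs) through 9 genes: the glucose transporter genes Slc2a1 and Slc2a3, the monocarboxylate transporter genes Slc16a1 and Slc16a3, their chaperone gene Bsg, the carbonic anhydrase genes Car9 and Car12, and the arrestin-like regulators Txnip and Arrdc4. They were taken by gene symbol from the annotation of the array, where 16 of 45281 probes belong to them. Of the 9 genes, 7 passed a detection filter that left 10873 genes in all, and Slc16a1 and Bsg did not. The data are 12 Illumina bead arrays of RNA, with 2 arrays in each of 6 groups. Cells of the genotypes TAp73+/+ and TAp73-/-, the latter lacking the transactivating isoforms of the transcription factor p73, were grown in DMEM with serum at 21% oxygen and left untreated or moved to 1% oxygen for 4 or 8 h. The labels give no strain, no other allele and no number of MEF lines, and do not say whether the 2 arrays of a group are separate cultures. The p-values therefore measure the spread between arrays, which may be technical, and genotype cannot be told apart from a difference between cell lines.

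When oxygen is scarce, cells make more of their ATP by glycolysis, which needs faster glucose entry and leaves lactate and protons to be exported. GLUT1 (Slc2a1) and GLUT3 (Slc2a3) admit glucose. MCT4 (Slc16a3) exports lactate with a proton, MCT1 (Slc16a1) carries it in both directions, and basigin (Bsg) takes both to the plasma membrane. Carbonic anhydrases IX (Car9) and XII (Car12) sit on the outer cell surface and interconvert carbon dioxide and bicarbonate, which sets the pH there. TXNIP and its relative ARRDC4 are alpha-arrestins that hold back glucose uptake, and both genes are known targets of the glucose-sensing MondoA-Mlx factors. The hypoxia-inducible factors (HIF) are known activators of Slc2a1, Slc2a3, Slc16a3, Car9 and Car12.

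Promoter windows show how differently the regulated members are built. RefSeq (GRCm38.p6) gave a start site for 7 of the 9 genes, all but Slc2a3 and Bsg, and the 250 bases before each start are used. The 4 windows printed here belong to the genes that differed between the genotypes in untreated cells. Capitals mark every match, on either strand, to the HIF core motif ACGTG, to the E-box CACGTG, which holds that core on both strands, or to the carbohydrate response element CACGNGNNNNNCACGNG, the pair of E-box-like sites that MondoA-Mlx is known to bind.
Slc2a1, chr4:119108495-119108744, + strand: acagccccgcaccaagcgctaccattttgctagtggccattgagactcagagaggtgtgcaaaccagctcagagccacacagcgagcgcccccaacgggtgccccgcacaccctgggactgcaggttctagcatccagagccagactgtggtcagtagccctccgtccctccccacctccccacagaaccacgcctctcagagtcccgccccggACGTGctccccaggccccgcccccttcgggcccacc
Slc16a3, chr11:120948817-120949066, + strand: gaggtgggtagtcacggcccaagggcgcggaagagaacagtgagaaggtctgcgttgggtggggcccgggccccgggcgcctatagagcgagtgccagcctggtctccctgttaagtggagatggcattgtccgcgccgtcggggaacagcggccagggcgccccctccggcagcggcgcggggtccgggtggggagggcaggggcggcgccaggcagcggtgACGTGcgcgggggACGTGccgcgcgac
Txnip, chr3:96557707-96557956, + strand: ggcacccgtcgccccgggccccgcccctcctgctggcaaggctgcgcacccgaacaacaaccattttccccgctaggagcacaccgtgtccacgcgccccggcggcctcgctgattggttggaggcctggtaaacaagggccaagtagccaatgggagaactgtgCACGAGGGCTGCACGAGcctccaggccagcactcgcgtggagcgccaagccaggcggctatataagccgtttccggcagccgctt
Arrdc4, chr7:68749239-68749488, - strand: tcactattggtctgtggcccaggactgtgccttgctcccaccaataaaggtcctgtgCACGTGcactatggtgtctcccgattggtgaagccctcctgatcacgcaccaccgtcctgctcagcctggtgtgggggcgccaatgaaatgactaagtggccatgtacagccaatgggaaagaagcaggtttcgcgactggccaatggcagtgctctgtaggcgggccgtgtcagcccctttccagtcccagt

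Slc2a1 has 1 HIF core, 36 bases before the start, and Slc16a3 has 2, which begin 27 and 14 bases before it. The Txnip window has no HIF core and holds the only carbohydrate response element among the 7 windows, 85 bases before the start. Arrdc4 has 1 E-box 193 bases before its start, and so does Slc16a1, at 200 bases. Car9 has 1 HIF core at 18 bases and Car12 has none of the 3 motifs. Of 32526 promoter windows of the same length, 16.7% hold the HIF core, 6.04% the E-box and 0.0461%, or 15 windows, the carbohydrate response element. A match in these letters is a description of the window, not evidence of binding.

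The arrays were similar in detection, but groups differed in raw signal and in a score, described below, that touches the results. Between 42.8% and 44.5% of probes were detected per array, and the 2 arrays of a group correlated at r = 0.991 to 0.997 across probes. Mean signals ran from 429 to 608 and were lowest on the TAp73-/- arrays at 8 h. Median signals before normalisation were 63.4 to 68.1 on the hypoxic TAp73-/- arrays and 72.2 to 78.5 on all others. A score of how the probes of 1 gene disagree stood highest on the untreated TAp73+/+ arrays, at 0.590 and 0.386, and lay between -0.365 and 0.302 on the other 10. In TAp73+/+ the score was -0.0760 and -0.104 at 4 h and 0.193 and 0.302 at 8 h, and it was negative on every TAp73-/- array. The score therefore varies with group, also in comparisons without the untreated TAp73+/+ arrays. For the detected member genes, values with the score as a covariate are given where they end, add or turn a call. Such values are not given for Trp73, the related genes and the markers, so whether their calls hold with the score is not shown. The 1 probe of Trp73 was detected on none of 6 TAp73+/+ arrays and on 5 of 6 TAp73-/- arrays. Its place relative to the deletion is not known here, and it therefore gives no check of the genotype labels. In TAp73-/- cells it was called higher at 4 and 8 h than untreated (0.85 and 1.21), where 1 of 2 untreated arrays detected it. The Trp73 probe was also called higher in TAp73-/- than in TAp73+/+ at 4 and 8 h (limma adjusted p = 0.000774 and 0.000294). Set against the lowest detected level of the TAp73+/+ arrays, it was at least 1.73-fold and 2.25-fold higher. Of 8 fibroblast markers, 3 were detected on all arrays, and the collagen genes Col1a1 and Col1a2 on none. Of 6 endothelial markers 3 were detected on no array, and of 5 macrophage markers with a probe 3.

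At 1% oxygen the glucose transporter genes and the lactate exporter gene rose and Txnip fell, in both genotypes and at both times. Calls rest on limma's p-values adjusted by Benjamini and Hochberg over all 10873 genes, with 0.05 as the threshold. In TAp73+/+ cells at 4 h, 4 of the 7 genes were called higher (Slc2a1, Slc2a3, Slc16a3 and Arrdc4) and Txnip lower, where 28.0% of all genes were called. At 8 h the same genes except Arrdc4 were called, 3 higher and 1 lower, against 23.9% of all genes. In TAp73-/- cells Slc2a1, Slc2a3 and Slc16a3 were higher and Txnip lower at 4 h, where 6.96% of all genes were called. The same genes moved the same way at 8 h, where 20.9% were called. The median absolute change of the 7 genes on the log2 scale was 1.68 and 0.57 in TAp73+/+ at 4 and 8 h and 0.88 and 1.32 in TAp73-/-, beside 0.23, 0.22, 0.16 and 0.20 over all genes. The 4 h and 8 h comparisons of a genotype share its untreated arrays. Carbonic anhydrase genes were not called in any of these 4 comparisons.

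**Figure D1:**
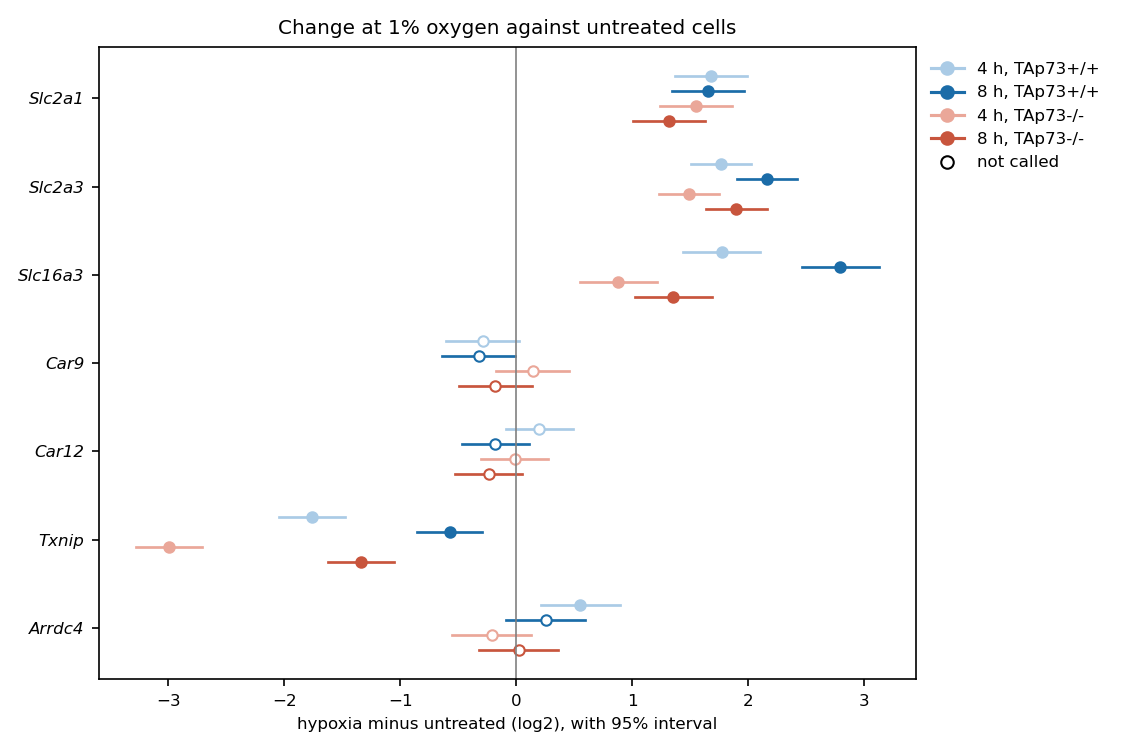
Change of the 7 detected genes at 1% oxygen against untreated cells of the same genotype (log2 difference, horizontal axis), with 95% intervals from limma over 12 arrays; open points were not called. Slc2a1, Slc2a3 and Slc16a3 lie to the right of 0 in all 4 comparisons and Txnip to the left, while the carbonic anhydrase genes lie near 0.

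Slc2a1, the gene of the widely expressed transporter GLUT1, had reached its level by 4 h. In TAp73+/+ cells its 2 arrays gave a normalised log2 signal of 11.74 and 11.77 before hypoxia, 13.45 and 13.42 at 4 h and 13.41 and 13.41 at 8 h. The TAp73-/- arrays gave 12.51 and 12.23 before hypoxia, 13.70 and 14.14 at 4 h and 13.67 and 13.71 at 8 h. All hypoxic arrays lay above all untreated arrays, and every TAp73-/- array lay above every TAp73+/+ array of the same time. The rise in TAp73+/+ was 1.68 ± 0.14 (log2, SE, n = 2 arrays per group; 3.20-fold; limma adjusted p = 3.28e-05) at 4 h and 1.65 ± 0.14 (3.14-fold; limma adjusted p = 2.19e-05) at 8 h. TAp73-/- cells rose by 1.55 ± 0.14 (2.92-fold; limma adjusted p = 0.000115) at 4 h and by 1.32 ± 0.14 (2.49-fold; limma adjusted p = 0.000145) at 8 h. Between 4 and 8 h no change was called in TAp73+/+ (-0.028, 95% interval -0.34 to 0.28) or in TAp73-/- (-0.23, 95% interval -0.54 to 0.078). Fitted with the probe score, the 4 h rise in TAp73+/+ was 1.74 and not called (limma adjusted p = 0.304). Without the first TAp73-/- array at 4 h the change to 8 h in that genotype was -0.46 and called (limma adjusted p = 0.0390).

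Slc2a3 encodes GLUT3, which has a high affinity for glucose and is best known from neurons. TAp73+/+ cells read 11.42 and 11.35 before hypoxia, 13.11 and 13.20 after 4 h and 13.56 and 13.53 after 8 h. The TAp73-/- values were 11.51 and 11.40 before hypoxia, 12.77 and 13.11 after 4 h and 13.40 and 13.31 after 8 h. Before hypoxia the genotypes overlapped, and in both genotypes the 8 h arrays lay above the 4 h arrays. In TAp73+/+ the gene rose by 1.77 ± 0.12 (3.40-fold; limma adjusted p = 5.45e-06) at 4 h and by 2.16 ± 0.12 (4.47-fold; limma adjusted p = 7.22e-07) at 8 h. In TAp73-/- it rose by 1.49 ± 0.12 (2.81-fold; limma adjusted p = 4.36e-05) and by 1.90 ± 0.12 (3.73-fold; limma adjusted p = 3.34e-06). The further rise from 4 to 8 h was 0.39 ± 0.12 in TAp73+/+ (limma adjusted p = 0.0490) and 0.41 ± 0.12 in TAp73-/- (limma adjusted p = 0.0498), just inside the threshold. Those calls were lost in 13 and 15 of 23 alternative settings. Among these was the removal of any 1 of 8 arrays for TAp73+/+ and of 9 for TAp73-/-. Some of those arrays belong to groups outside the step, and without them its size stayed at 0.39 or 0.41. The replicate number as a block also ended both calls (limma adjusted p = 0.0692 and 0.0690). With the probe score both steps kept their size, 0.39 and 0.41, and neither was called (limma adjusted p = 0.667 and 0.298). The 4 h rise in TAp73+/+ stayed at 1.77 once the probe score was in the model, but was not called (limma adjusted p = 0.189).

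**Figure D2:**
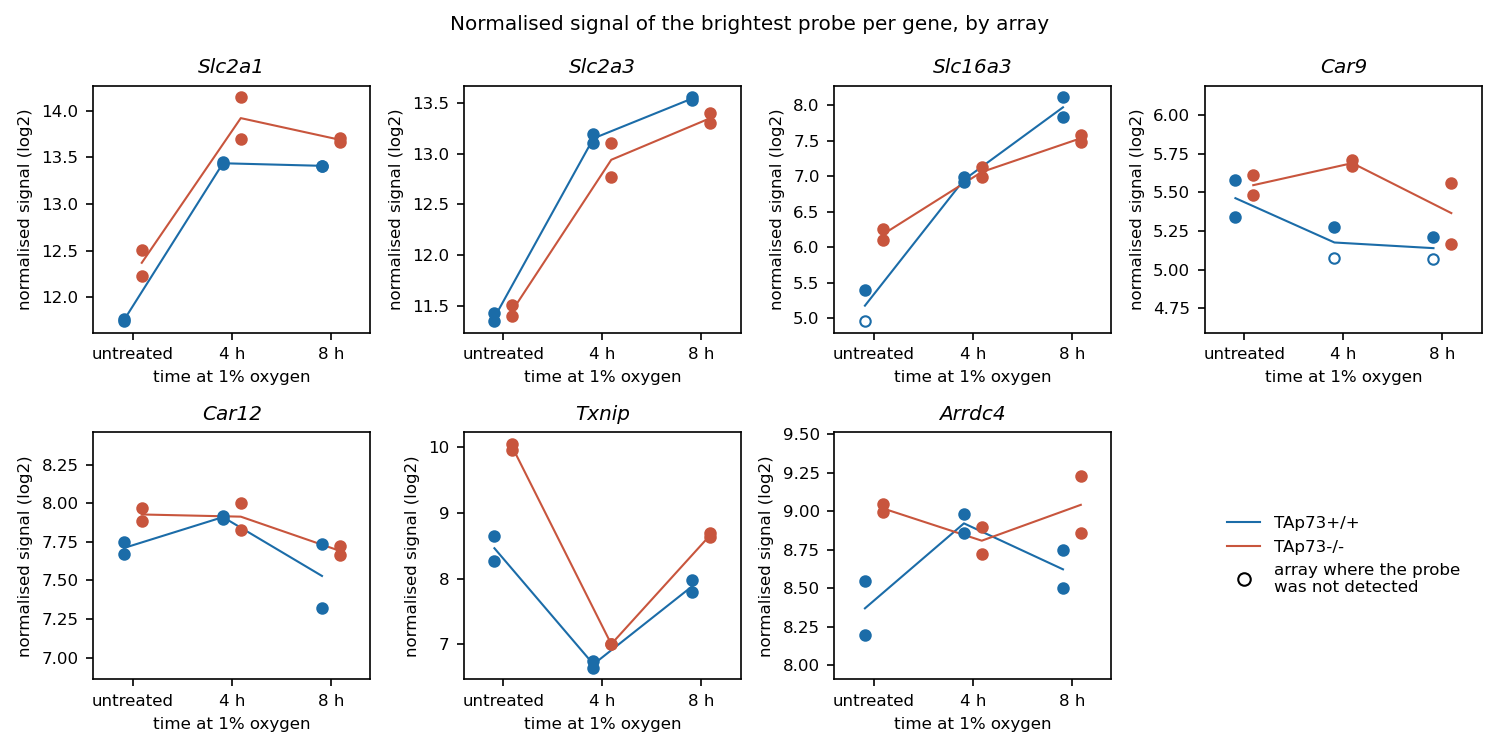
Normalised log2 signal (vertical axis, scaled for each gene) of the brightest probe of the 7 detected genes, for each array, by time at 1% oxygen (horizontal axis) and genotype; lines join the means of 2 arrays and open circles are arrays where the probe was not detected. Slc2a1, Slc2a3 and Slc16a3 are lowest in untreated cells of both genotypes, and Txnip is lowest at 4 h, at 6.64 to 7.01, and higher again at 8 h.

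Lactate export was represented by Slc16a3, which went on rising to 8 h in TAp73+/+ cells. Its brightest probe read 5.40 and 4.95 in untreated TAp73+/+ cells, where it was detected on 1 of 2 arrays, then 6.92 and 6.98 at 4 h and 7.83 and 8.11 at 8 h. TAp73-/- cells read 6.26 and 6.10 before hypoxia, 7.13 and 6.99 after 4 h and 7.59 and 7.48 after 8 h. The 6 groups did not overlap, the 4 h groups only narrowly, and TAp73-/- stood above at 0 and 4 h and below at 8 h. That 8 h difference depends on the setting, as given below. TAp73+/+ cells rose by 1.77 ± 0.15 (3.42-fold; limma adjusted p = 3.48e-05) at 4 h, by 2.80 ± 0.15 (6.94-fold; limma adjusted p = 6.51e-07) at 8 h, and by 1.02 ± 0.15 (limma adjusted p = 0.00276) from 4 to 8 h. In TAp73-/- cells the rise was 0.88 ± 0.15 (1.84-fold; limma adjusted p = 0.00698) at 4 h and 1.36 ± 0.15 (2.56-fold; limma adjusted p = 0.000190) at 8 h, with 0.48 ± 0.15 from 4 to 8 h not called (limma adjusted p = 0.0667). That last step was called without background correction (0.34, limma adjusted p = 0.0298), from the series matrix (0.37, limma adjusted p = 0.0311) and without either untreated TAp73+/+ array (limma adjusted p = 0.0310).

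The size of the Slc16a3 changes depends on the correction for background, and its untreated TAp73+/+ signal lies close to the lowest detected level, 4.99 to 5.08 on these arrays. Without that correction the rises were 0.92 and 1.67 in TAp73+/+ and 0.54 and 0.88 in TAp73-/- at 4 and 8 h, and all 4 were called. Without the second untreated TAp73-/- array the 4 h rise there was 0.80 and not called (limma adjusted p = 0.0692). Adding the probe score to the model, the TAp73+/+ rises were 2.62 at 4 h and 3.15 at 8 h, both called, and the step between them was 0.53 and not called (limma adjusted p = 0.568). The other 2 probes of Slc16a3 followed none of this. They were detected on 3 and on 0 of 12 arrays and ran from 4.63 to 5.30 and from 4.36 to 4.65.

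Slc16a1 and Bsg could not be read. The probe of Slc16a1, the gene of the bidirectional lactate carrier MCT1, was detected on 0 of 12 arrays, with deposited signals of 56.3 to 71.3 and detection p-values of 0.179 to 0.550. Both probes of Bsg, the chaperone gene, were likewise detected on no array, with deposited signals of 56.3 to 70.0 and 53.9 to 65.5. Bsg and Slc16a1 are not well above background in any group, which is a statement about these 3 probes and gives no level for the genes.

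**Figure D3:**
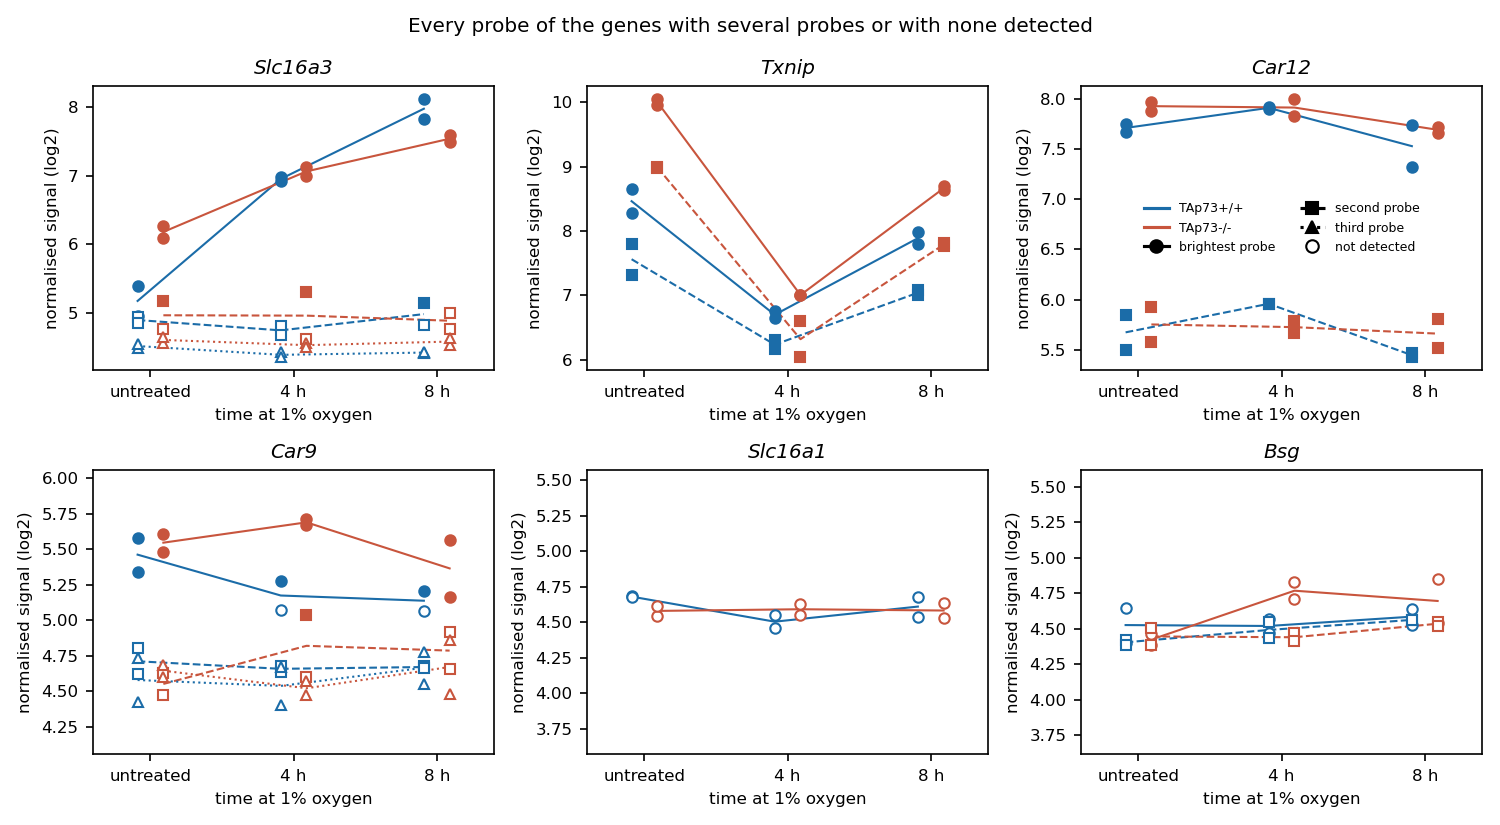
Normalised log2 signal (vertical axis, scaled for each gene) of every probe of the 4 detected genes with several probes and of the 2 undetected genes, for each array, by time at 1% oxygen and genotype; lines join the means of 2 arrays, the line style and marker give the probe, and open markers are arrays where it was not detected. The brightest Slc16a3 probe climbs while its other 2 probes stay at or below 5.30, and both Txnip probes follow the same course.

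Txnip, which restrains glucose uptake and binds thioredoxin, fell at 4 h and had partly recovered by 8 h. TAp73+/+ cells read 8.65 and 8.27 before hypoxia, 6.75 and 6.64 after 4 h and 7.98 and 7.79 after 8 h. TAp73-/- cells read 9.95 and 10.05 before hypoxia, 7.01 and 7.00 after 4 h and 8.63 and 8.69 after 8 h. Untreated TAp73-/- arrays were the highest of all, the 4 h arrays of both genotypes the lowest, and TAp73-/- at 8 h overlapped untreated TAp73+/+. In TAp73+/+ the gene fell by 1.76 ± 0.13 (3.40-fold; limma adjusted p = 1.10e-05) at 4 h, and at 8 h the change from untreated was -0.57 ± 0.13 (1.49-fold lower; limma adjusted p = 0.00923). In TAp73-/- it changed by -2.996 ± 0.13 (7.98-fold lower; limma adjusted p = 7.34e-07) at 4 h and by -1.34 ± 0.13 (2.53-fold lower; limma adjusted p = 6.75e-05) at 8 h. From 4 to 8 h it rose by 1.19 ± 0.13 in TAp73+/+ (limma adjusted p = 0.000585) and by 1.66 ± 0.13 in TAp73-/- (limma adjusted p = 0.000202).

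A second Txnip probe, dimmer and detected on all 12 arrays, gave the same course when each probe was tested alone among 17891. It read 7.80, 7.32, 6.16, 6.31, 7.00 and 7.08 across the TAp73+/+ arrays from untreated to 8 h, and 8.99, 8.98, 6.60, 6.04, 7.81 and 7.76 across those of TAp73-/-. Its change at 4 h was -1.33 ± 0.19 in TAp73+/+ (limma adjusted p = 0.000606) and -2.67 ± 0.19 in TAp73-/- (limma adjusted p = 2.04e-05). At 8 h it was -0.52 ± 0.19 in TAp73+/+, not called (limma adjusted p = 0.0706), and -1.20 ± 0.19 in TAp73-/- (limma adjusted p = 0.00218). For the brightest probe, the 8 h call in TAp73+/+ was lost without the first untreated array (-0.38, limma adjusted p = 0.0504) and without the second 8 h array (-0.48, limma adjusted p = 0.0753). The TAp73+/+ changes fitted together with the probe score were -1.27 at 4 h (limma adjusted p = 0.394), -0.37 at 8 h (limma adjusted p = 0.261) and 0.90 from 4 to 8 h (limma adjusted p = 0.276), none of them called, while the 3 changes in TAp73-/- remained called.

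Arrdc4, the closest relative of Txnip in this set and likewise a brake on glucose uptake, did not share that fall. TAp73+/+ cells read 8.20 and 8.54 before hypoxia, 8.86 and 8.98 after 4 h and 8.75 and 8.50 after 8 h. TAp73-/- cells read 8.99 and 9.05 before hypoxia, 8.90 and 8.72 after 4 h and 9.23 and 8.86 after 8 h. The untreated TAp73+/+ arrays lay below both 4 h arrays of that genotype and overlapped those at 8 h. The 4 h change in TAp73+/+ was 0.55 ± 0.15 (1.47-fold; limma adjusted p = 0.0230), and this call was lost without the first untreated array (0.38, limma adjusted p = 0.161) or without the first (0.61, limma adjusted p = 0.0679) or second 4 h array (0.49, limma adjusted p = 0.127). In the model that holds the probe score it was negative, -0.64 (limma adjusted p = 0.568). None of the other changes with hypoxia was called, at 0.25 (95% interval -0.089 to 0.59) for 8 h in TAp73+/+, and at -0.21 (95% interval -0.55 to 0.13) for 4 h and 0.023 (95% interval -0.32 to 0.36) for 8 h in TAp73-/-.

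The carbonic anhydrase genes Car9 and Car12, whose products act on the outer cell surface, showed no call for hypoxia. Car12 was well detected and read 7.67 and 7.75 before hypoxia, 7.90 and 7.92 after 4 h and 7.32 and 7.74 after 8 h in TAp73+/+ cells. In TAp73-/- cells it read 7.97 and 7.88, 7.83 and 8.00, and 7.72 and 7.66. Its changes against untreated cells ran from -0.24 to 0.20, and the 95% intervals reached from -0.53 to 0.49. A second Car12 probe, detected on all arrays at 5.43 to 5.96, was not called in any comparison either. The nearest to a call was its step from 4 to 8 h in TAp73+/+, at -0.51 ± 0.16 (limma adjusted p = 0.0510), beside -0.38 ± 0.13 (limma adjusted p = 0.0773) for the brighter probe. That step was called, at -0.45, with the mean of both probes (limma adjusted p = 0.0303) and, at -0.59, without the second 8 h array of TAp73+/+ (limma adjusted p = 0.0427).

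Car9 stood at the edge of detection. Its brightest probe read 5.58 and 5.34 before hypoxia, 5.07 and 5.28 after 4 h and 5.07 and 5.21 after 8 h in TAp73+/+ cells, detected on 1 of 2 arrays at each time of hypoxia. In TAp73-/- cells it was detected on all 6 arrays, at 5.48 and 5.61, 5.67 and 5.71, and 5.56 and 5.17. The lowest detected probe of an array stands at 4.99 to 5.08, so a fall below that range could not have been seen. Its changes against untreated cells were -0.29 (95% interval -0.60 to 0.028) and -0.32 (95% interval -0.64 to -0.0091) in TAp73+/+ and 0.14 (95% interval -0.17 to 0.46) and -0.18 (95% interval -0.50 to 0.13) in TAp73-/- at 4 and 8 h, with limma adjusted p from 0.123 to 0.584. The other 2 Car9 probes were detected on 1 and on 0 arrays.

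Steps from 4 to 8 h were called for 3 of 7 genes in TAp73+/+ (Slc2a3, Slc16a3 and Txnip, all higher), where 13.8% of all genes were called and 8.62% were higher, and for 2 in TAp73-/- (Slc2a3 and Txnip, both higher), where 10.6% were called and 6.75% were higher. Ordered by mean level, Slc16a3 had 6 separate groups, from TAp73+/+ at 8 h down to untreated TAp73+/+. Its 4 h groups were barely separate, with the highest TAp73+/+ array at 6.98 and the lowest TAp73-/- array at 6.99. Their difference of 0.11 ± 0.15 was not called (limma adjusted p = 0.594). For Slc2a1 the 4 h and 8 h groups of TAp73-/- overlapped at the top. For Slc2a3 the 4 h groups of the genotypes overlapped, as did the untreated groups. For Txnip only TAp73-/- at 8 h and untreated TAp73+/+ overlapped among neighbours. Neighbours overlapped at 4 of 5 places for Car9, 4 of 5 for Car12 and 4 of 5 for Arrdc4. How often groups of 2 arrays separate among all genes was not counted, so these orders only describe the arrays.

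Before hypoxia, TAp73-/- cells already carried more RNA of Txnip, Slc16a3, Arrdc4 and Slc2a1 than TAp73+/+ cells. Of the 7 genes these 4 were called higher and none lower, where 38.4% of all genes were called, 18.0% higher, and their changes were 1.54 ± 0.13 for Txnip (2.91-fold; limma adjusted p = 7.00e-06), 1.00 ± 0.15 for Slc16a3 (2.01-fold; limma adjusted p = 0.000501), 0.65 ± 0.15 for Arrdc4 (1.57-fold; limma adjusted p = 0.00759) and 0.61 ± 0.14 for Slc2a1 (1.53-fold; limma adjusted p = 0.00610). The second Txnip probe was higher by 1.43 ± 0.19 (limma adjusted p = 0.000248). Slc2a3 (0.067, 95% interval -0.19 to 0.33), Car9 (0.084, 95% interval -0.23 to 0.40) and Car12 (0.22, 95% interval -0.072 to 0.51) were not called. Txnip was still called, at 2.05, in the model with the probe score (limma adjusted p = 0.0359). Slc16a3 at 1.89 (limma adjusted p = 0.0615), Slc2a1 at 0.68 (limma adjusted p = 0.554) and Arrdc4 at -0.60 (limma adjusted p = 0.419) were then not called. The Slc16a3 difference was 0.46 without background correction, still called. Leaving out the first untreated TAp73-/- array ended the Slc2a1 call (0.48, limma adjusted p = 0.0580), and leaving out the first untreated TAp73+/+ array ended that of Arrdc4 (0.47, limma adjusted p = 0.0670).

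During hypoxia fewer of these differences were called. At 4 h Slc2a1 was higher in TAp73-/- by 0.48 ± 0.14 (limma adjusted p = 0.0209) and Car9 by 0.52 ± 0.14 (limma adjusted p = 0.0171), 2 of 7 genes where 36.5% of all were called and 18.5% were higher. At 8 h Txnip was higher by 0.78 ± 0.13 (limma adjusted p = 0.000988; second probe 0.75 ± 0.19, limma adjusted p = 0.0115) and Slc16a3 lower at -0.44 ± 0.15 (limma adjusted p = 0.0424), where 36.3% were called. Both counts of 2 in 7 lie below the share of all genes called, and 4 of 7 in untreated cells lies above it, so the counts alone say little about these genes. Arrdc4 at 8 h was 0.42 ± 0.15 apart (limma adjusted p = 0.0558) and was called without background correction (0.37, limma adjusted p = 0.0279). With the probe score in the model Txnip at 8 h was 1.13 apart and not called (limma adjusted p = 0.0534). At 4 h neither Slc2a1, at 0.51 (limma adjusted p = 0.209), nor Car9, at 0.50 (limma adjusted p = 0.223), was then called. Arrdc4 at 4 h was then called lower in TAp73-/-, at -0.68 (limma adjusted p = 0.0277). Slc2a3 at 4 h, not called at -0.21 ± 0.12 (limma adjusted p = 0.186), was called lower in TAp73-/- without the second 4 h array of that genotype (-0.38, limma adjusted p = 0.0316). The Slc2a1 call at 4 h was lost without either TAp73+/+ array of that time (0.49 and 0.47, limma adjusted p = 0.0838 and 0.0901) and without the second TAp73-/- array (0.26, limma adjusted p = 0.152). That of Car9 was lost without the first TAp73+/+ array (0.41, limma adjusted p = 0.127) or the second TAp73-/- array (0.49, limma adjusted p = 0.0742), and it was 0.21 without background correction (limma adjusted p = 0.0586). The Slc16a3 call at 8 h was lost without any of 7 arrays. Among them, the 4 h TAp73+/+ and untreated TAp73-/- arrays are not in this comparison, and without them the value stayed at -0.44. Without the second TAp73+/+ array at 8 h it was -0.29, and without the first or second TAp73-/- array at 8 h -0.49 and -0.38. In the model with the probe score the value became positive, 0.17 (limma adjusted p = 0.802).

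Fibroblast and epithelial markers also differed between the genotypes. Summed over 8 fibroblast markers, the linear signal was 2887 to 7221 on TAp73+/+ arrays and 5950 to 9537 on TAp73-/- arrays, and over 6 epithelial markers it was 4664 to 5957 and 6741 to 8497. Most of these linear sums comes from the brightest gene of each list, Vim and Krt18. The mean log2 signal of Vim rose in TAp73+/+ from 11.43 untreated to 12.61 at 4 h, beside 12.60 in TAp73-/- at 4 h. The fibroblast sums therefore mix time with genotype. Of 4 fibroblast markers past the filter 3 were called higher in untreated TAp73-/- cells, Thy1 (2.35), Fbln2 (1.13) and Vim (0.90), and 1 lower, Pdgfrb (-0.59). Of 4 epithelial markers 3 were called higher, the keratin genes Krt8 (1.00) and Krt18 (0.63) and Cdh1 (0.35), and none lower. At 4 and 8 h all 4 epithelial markers were called higher in TAp73-/-, and of the 4 fibroblast markers 2 were higher and none lower. Over all genes 38.4%, 36.5% and 36.3% were called between the genotypes untreated and at 4 and 8 h. Epithelial Epcam and Krt5 were detected on no array. Endothelial (158 to 173 and 144 to 167) and macrophage sums (288 to 335 and 320 to 394) were far smaller. The part of these markers in the genotype differences of the transport genes was not tested, and in whole cultures a change in the share of cells cannot be told apart from a change in RNA per cell.

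**Figure D4:**
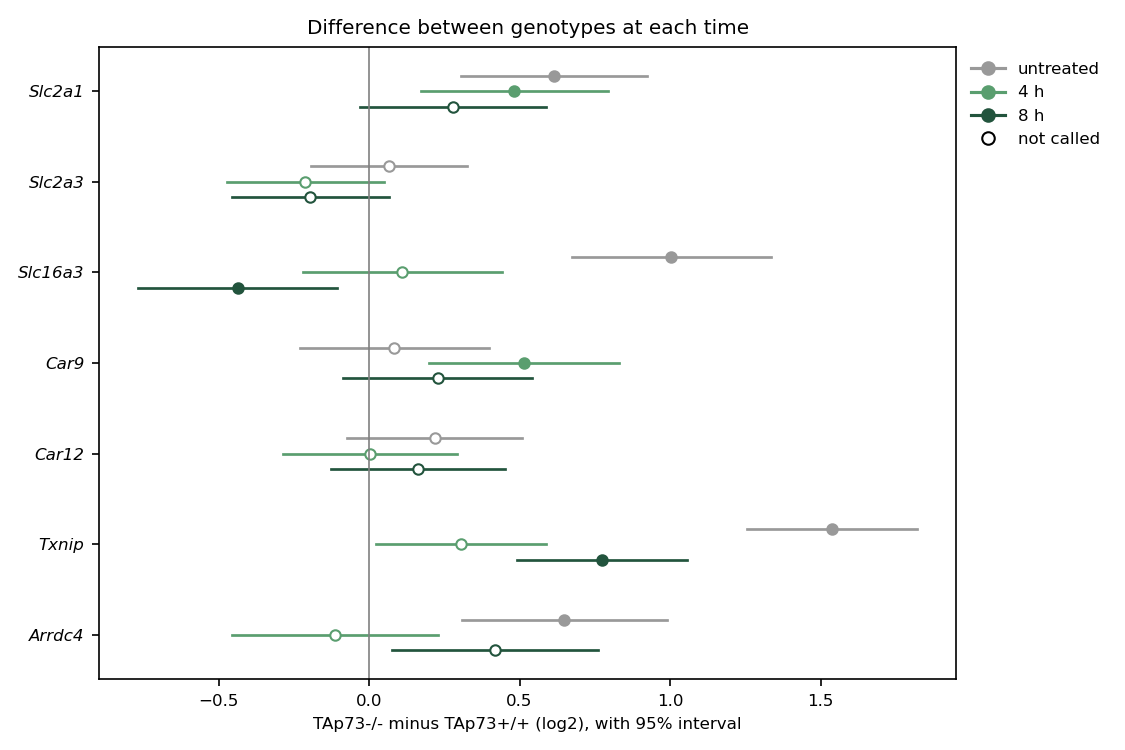
Difference between TAp73-/- and TAp73+/+ cells of the same time for the 7 detected genes (log2, horizontal axis), with 95% intervals from limma over 12 arrays; open points were not called. Txnip, Slc16a3, Arrdc4 and Slc2a1 lie right of 0 in untreated cells, and Slc16a3 lies left of 0 at 8 h.

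Whether the genotypes responded differently to hypoxia was tested as an interaction, and 1 gene of 7 was called at each time. For Txnip the 4 h change was more negative in TAp73-/- than in TAp73+/+ by 1.23, a difference of -1.23 ± 0.18 (95% interval -1.63 to -0.83; limma adjusted p = 0.0267), where 0.304% of all genes were called and 0.221% had a negative difference. For Slc16a3 the 8 h rise was smaller in TAp73-/-, a difference of -1.44 ± 0.21 (95% interval -1.91 to -0.97; limma adjusted p = 0.0210), where 0.478% of all genes were called and 0.267% had a negative difference. Both genes differed between the genotypes in untreated cells, and these untreated arrays enter the interaction as well. At 4 h Txnip levels in the genotypes were 0.31 ± 0.13 apart (limma adjusted p = 0.0839, and called at 0.0320 without either untreated TAp73+/+ array), against 1.54 before. Slc16a3 levels at 4 h were 0.11 ± 0.15 apart (limma adjusted p = 0.594).

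Both calls were lost without some single arrays, at sizes near those of the full fit. Each such fit also had fewer arrays from which to estimate the spread. The Txnip call was lost without either 4 h array of TAp73+/+, either untreated array of TAp73-/- or the second 4 h array of TAp73-/-, with limma adjusted p of 0.0675 to 0.134 and sizes of -1.29 to -1.18. In the model with the probe score it was -1.51 (limma adjusted p = 0.331), and the second probe gave -1.34 ± 0.27 (limma adjusted p = 0.0525). The Slc16a3 call was lost without the second 8 h array of TAp73+/+, either untreated array of TAp73-/- or either 8 h array of TAp73-/-, with limma adjusted p of 0.0599 to 0.0920 and sizes of -1.52 to -1.30. It remained called with the covariate, at -1.72 (limma adjusted p = 0.0355), and without background correction, at -0.80 (limma adjusted p = 0.0123). The remaining differences in response were not called. Slc16a3 at 4 h was nearest, at -0.89 ± 0.21 (limma adjusted p = 0.0770), then Txnip at 8 h, at -0.76 ± 0.18 (limma adjusted p = 0.0910; called without background correction at -0.74, limma adjusted p = 0.0229), and Arrdc4 at 4 h, at -0.76 ± 0.22 (limma adjusted p = 0.124). For Slc2a1 the differences were -0.13 (95% interval -0.57 to 0.31) at 4 h and -0.34 (95% interval -0.77 to 0.10) at 8 h, and for Slc2a3 -0.28 (95% interval -0.65 to 0.090) and -0.26 (95% interval -0.63 to 0.11). Car9, Car12 and Arrdc4 at 8 h were not called either.

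Genes whose levels followed each member most closely over the 12 arrays were ranked by Pearson r among 10873 genes. The arrays fall into 6 groups, so r mostly reflects the group means, and it carries no test. Slc2a1 was followed by Tnfaip3 (r = 0.981), Hilpda (r = 0.978) and Ndrg1 (r = 0.977), and Slc2a3 by Ppp1r3c (r = 0.992), Vldlr (r = 0.990) and Tmem74b (r = 0.985). Hilpda, Ndrg1 and Vldlr are known hypoxia-induced genes, and Ppp1r3c encodes a glycogen-targeting subunit of protein phosphatase 1. Slc16a3 was followed by Mpp2 (r = 0.974), H2-Ab1 (r = 0.968) and Pdk1 (r = 0.968), of which Pdk1 encodes a kinase that slows pyruvate entry into mitochondrial oxidation. Txnip had Zcchc24 (r = 0.937), Zfp940 (r = 0.931) and Prickle1 (r = 0.906), and Arrdc4 had H2az2 (r = 0.910), Mrpl44 (r = 0.901) and Becn1 (r = 0.897). The nearest genes were Tm7sf3 (r = 0.908) for Car9 and Pdlim5 (r = 0.849) for Car12.

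Among enzymes on either side of these transporters, glucose phosphorylation and lactate formation were read by 3 of 4 listed genes. Hk1, a hexokinase gene, rose by 1.15 and 1.58 in TAp73+/+ at 4 and 8 h (limma adjusted p = 0.000403 and 3.86e-05) and by 0.59 and 1.07 in TAp73-/- (limma adjusted p = 0.0378 and 0.000653), with its other probe of the same sign. Ldha, which makes lactate from pyruvate, rose by 0.44 and 0.67 in TAp73+/+ and by 0.33 at 8 h in TAp73-/- (limma adjusted p = 0.00930, 0.00116 and 0.0393). Neither was called between the genotypes.

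Related transporter genes gave scattered calls, and their counts are to be read beside the shares of all genes called, 28.0% and 23.9% at 4 and 8 h in TAp73+/+, 6.96% and 20.9% in TAp73-/-, and 38.4%, 36.5% and 36.3% between the genotypes untreated and at 4 and 8 h. Of 12 further glucose transporter genes 2 passed the filter, and neither was called against untreated cells. Slc2a8, which encodes the intracellular transporter GLUT8, rose from 4 to 8 h by 0.62 in TAp73+/+ (limma adjusted p = 0.0201) and by 0.57 in TAp73-/- (limma adjusted p = 0.0332). It was lower in TAp73-/- when untreated (-0.41) and at 8 h (-0.41), and its other probe shared the sign only for the step in TAp73-/-. Slc2a9, known for urate transport, was called higher in TAp73-/- at 8 h (limma adjusted p = 0.0124), where its probe was not well above background on either TAp73+/+ array. Set against the lowest detected level of those arrays it was at least 1.18-fold higher, and "at least" has this meaning below.

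Of 18 other monocarboxylate transporter and chaperone genes 8 passed, with 1 higher and 1 lower at 4 h and 1 higher at 8 h in TAp73+/+, and none at 4 h and 1 each way at 8 h in TAp73-/-. Slc16a10, an aromatic amino acid transporter gene, was higher by 0.58 and 0.64 in TAp73+/+ at 4 and 8 h and higher in untreated TAp73-/- cells (0.53), and Slc16a9 was lower at 4 h in TAp73+/+ (-0.55). Slc16a13 was lower at 8 h in TAp73-/- (-0.59) and higher in that genotype at all 3 times (0.73, 0.57 and 0.32). Slc16a11 was not detected in untreated TAp73-/- cells and was at least 1.15-fold higher there at 8 h (limma adjusted p = 0.0260). Between the genotypes 2, 1 and 1 of the 8 were higher in TAp73-/- and 3, 2 and 1 lower, untreated and at 4 and 8 h. Emb, whose product embigin is another chaperone of monocarboxylate transporters, was lower in TAp73-/- at all 3 times (-0.78, -0.57 and -0.85). Slc16a6 (-0.71, a sign shared by 1 of its 2 other probes) and Slc16a11 (at least 1.09-fold, detected on 1 of 2 TAp73+/+ arrays) were lower untreated, and the lactate transporter gene Slc5a12, detected on 1 of 2 TAp73-/- arrays, at 4 h (-0.56).

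Of 14 other carbonic anhydrase genes 3 passed. Car13, a cytosolic form, was higher in TAp73-/- by 0.44, 0.45 and 0.68, and rose by 0.39 at 4 h in TAp73+/+ and by 0.51 at 8 h in TAp73-/-. Car5b, a mitochondrial form, was higher by 0.50 at 8 h in TAp73+/+, a sign shared by 2 of its 3 other probes. It rose by 0.62 from 4 to 8 h in TAp73-/- and was 0.50 higher in that genotype untreated, with all 3 other probes of the same sign.

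Acid is also moved by exchangers and pumps. Of 19 sodium-proton and bicarbonate exchanger genes 9 passed the filter, and in TAp73+/+ 2 were higher and 2 lower at 4 h and 1 higher at 8 h, with 1 higher and 2 lower at 4 h and 1 each way at 8 h in TAp73-/-. Chp1, a cofactor of sodium-proton exchangers, rose by 1.38 at 4 h in TAp73+/+ and stood 0.50 above untreated at 8 h, a step of -0.88. The anion exchanger gene Slc4a3 changed by -0.65 at 4 h in TAp73+/+ (limma adjusted p = 0.00713) and by 0.49 from 4 to 8 h, with its 3 other probes of the same sign. The bicarbonate cotransporter gene Slc4a4 changed by -0.50 at 4 h in TAp73+/+ and by -0.68 in TAp73-/-, and there by 0.66 from 4 to 8 h. Slc4a8 rose by 0.50 from 4 to 8 h in TAp73+/+, and in TAp73-/- Slc26a6 was lower at 4 h (-0.63) and Slc4a2 at 8 h (-0.49). The sodium-proton exchanger gene Slc9a8 was higher by 0.41 at 4 h in TAp73+/+ and by 0.56 and 0.53 at 4 and 8 h in TAp73-/-. Between the genotypes 1, 0 and 0 of the 9 were higher in TAp73-/- and 4, 1 and 4 lower, untreated and at 4 and 8 h. Chp1 was the higher one (0.75), and Slc4a4 (-0.54 and -0.71 untreated and at 4 h), Slc4a2 (-0.46 and -0.67 untreated and at 8 h), Slc9a2 (-0.53 and -0.54) and Slc26a6 (-0.58 at 8 h) were among the lower.

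All 16 vacuolar proton pump genes found on the array passed, of 18 listed. At 4 h in TAp73+/+ Atp6v1g1 (0.98) and Atp6v1c1 (0.82) rose, at 4 h in TAp73-/- none was called, and at 8 h Atp6v1c1 was higher in TAp73+/+ (0.51) and Atp6v0d1 (0.51) and Atp6v1d (0.30) in TAp73-/-. Tcirg1 rose by 0.34 from 4 to 8 h in TAp73-/-, a sign shared by 1 of its 3 other probes. The subunit gene Atp6v0e2 was lower in TAp73-/- at all 3 times (-1.03, -1.26 and -0.89), and Tcirg1 was higher at all 3 (0.52, 0.30 and 0.39). Atp6v1g1 (0.63 and 0.68 untreated and at 8 h), Atp6v1c1 (0.42 untreated) and Atp6v0a1 (0.35 at 8 h) were higher too. Atp6v0d1 (-0.43) and Atp6v0a2 (-0.29) were lower untreated, a sign that none of their other probes shared.

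**Figure D5:**
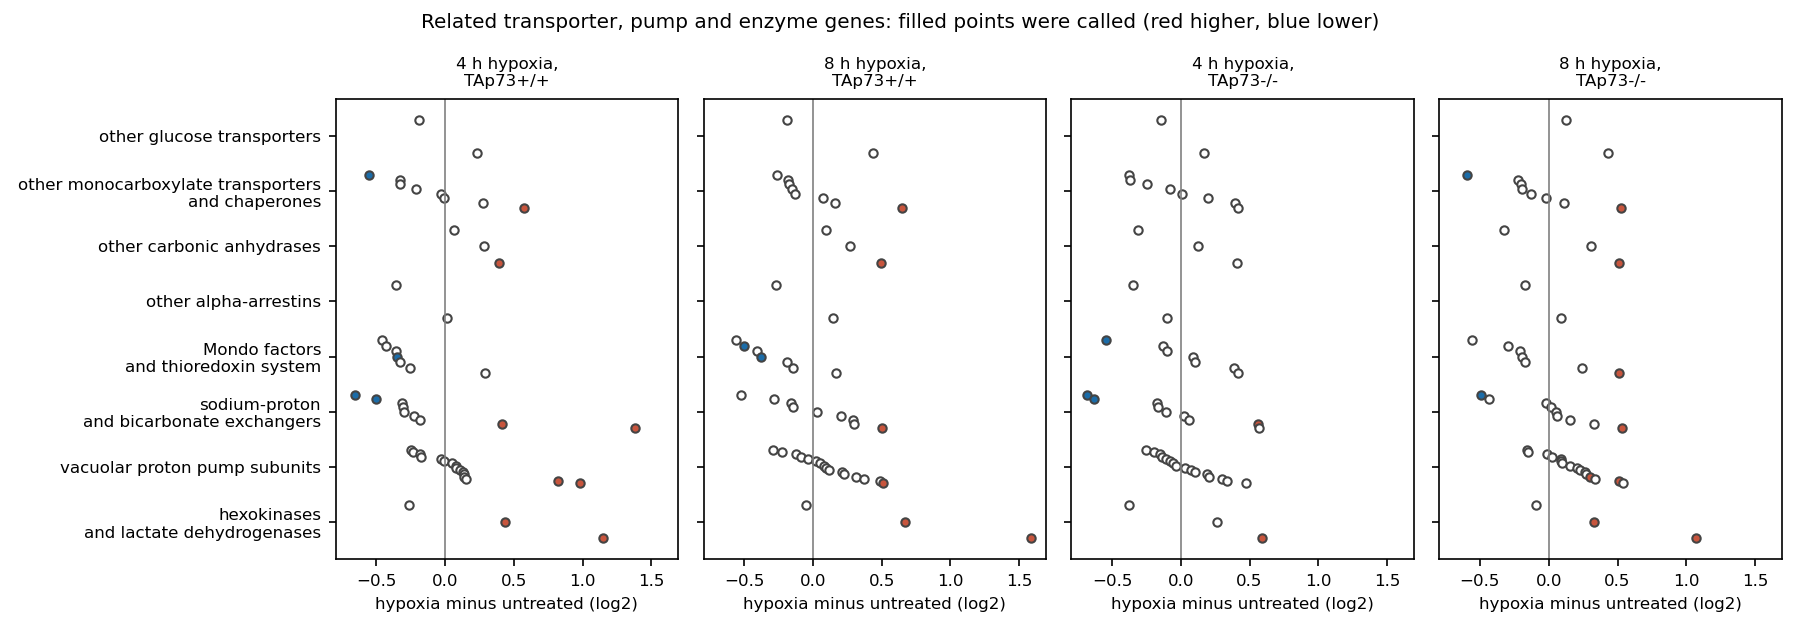
Change at 1% oxygen against untreated cells (log2, horizontal axis) for each gene past the filter in 8 lists of related transporter, pump and enzyme genes, in the 4 comparisons of hypoxia; each point is a gene and filled points were called (red higher, blue lower). Calls above 1 belong to Hk1 and to Chp1, and most of the other genes lie within 0.5 of no change.

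All 7 genes listed for the Mondo factors, known to act upstream of Txnip and Arrdc4, and for the thioredoxin system passed the filter. Mlxip, which encodes MondoA, was lower at 4 h in TAp73-/- (-0.55, limma adjusted p = 0.0264), with -0.35 in TAp73+/+ (limma adjusted p = 0.0547). Its partner gene Mlx was lower at 8 h in TAp73+/+ (-0.50), and Txn2, the mitochondrial thioredoxin gene, at 4 and 8 h there (-0.35 and -0.37). Txnrd2, the mitochondrial reductase gene, was higher at 8 h in TAp73-/- (0.51) and lower in that genotype untreated (-0.59). The thioredoxin reductase gene Txnrd1 was higher in TAp73-/- at all 3 times (0.81, 1.11 and 0.81), as Txnip was when untreated and at 8 h. Mlx was higher there at 4 and 8 h (0.51 and 0.58, a sign shared by 1 and 2 of its 2 other probes), and at 4 h Txn1 was higher (0.78) and Mlxip lower (-0.46). Of 4 other alpha-arrestin genes, Arrdc1 and Arrdc2 passed and were not called in any comparison. Hif1a, the gene of the oxygen-regulated HIF subunit, rose by 1.59 at 4 h in TAp73+/+ and was 1.43 higher in untreated TAp73-/- cells, a difference that its other probe past the filter did not share in sign. Nor did that probe share its fall from 4 to 8 h, at -0.99 in TAp73+/+ and -1.01 in TAp73-/-. Arnt, the gene of the HIF partner subunit, rose by 0.46 from 4 to 8 h in TAp73-/-. The Myc probe was not detected in untreated TAp73+/+ cells and was at least 1.06-fold higher at 4 h and at least 1.09-fold at 8 h, where 1 of 2 arrays detected it.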

How the data were processed

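Per the file headers, the raw table has for every probe and array an intensity and a detection p-value. The deposited series matrix gives processed intensities, linear and with a median of 71.5 on each array. Partek appears in the submitters' processing notes. The deposited raw intensities were corrected for background from the detection p-values (offset 16), quantile-normalised and converted to log2 by neqc (limma 3.58.1, R 4.3.3). A probe needed a detection p under 0.05 on the 2 arrays of some group. This left 21223 of 45281 probes, 17891 of them with 1 symbol. Symbols are those of the platform annotation, brought up to date by Entrez identifier for 34807 of 34885 probes. The brightest probe stood for a gene.

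The limma model had 6 group means (residual degrees of freedom 6, prior 4.79). It gave 11 contrasts, with Benjamini-Hochberg adjustment over 10873 genes, or over 17891 probes for second probes, and moderated standard errors. The number of arrays limits the precision. Arrays with the same replicate number did not deviate together (15 pairs of groups, r from -0.250 to 0.125), so no block was used. The model was run on simulated data with independent noise and known changes. That run checks the code and not whether the model suits these arrays. The 9 genes, the related lists and the markers were chosen with earlier results of these data known. The text names the 9 genes, Trp73, called genes with the largest rises and falls in each list, up to 3 each way, and the 3 genes most like each detected member. Mlxip in TAp73+/+ cells is outside this rule and was named after its value was seen. Alternatives were no background correction, median scaling, the series matrix, other filters, other probe rules, fewer groups, a variance trend, a replicate block, the probe score and leaving out each array.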

Additional observations from a re-analysis of the deposited data

Results flagged for a closer look

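By an interaction test in limma, the response of 1 of the 7 detected genes was called as differing between the genotypes each time. That gene was Txnip for the 4 h response and Slc16a3 for the 8 h response. The shares of all genes with such a call were 0.304% and 0.478%. The Txnip call was lost in 7 of 23 alternative settings and the Slc16a3 call in 6 of 22. A second Txnip probe gave -1.34 ± 0.27 for the 4 h response, not called (limma adjusted p = 0.0525). The 4 h change of Txnip differed by -1.23 ± 0.18 (limma adjusted p = 0.0267), with all 4 hypoxic arrays at 6.64 to 7.01 and the untreated arrays of the genotypes 1.54 apart on average. The 8 h change of Slc16a3 differed by -1.44 ± 0.21 (limma adjusted p = 0.0210), with the genotypes 1.00 apart untreated, TAp73-/- above, and -0.44 apart at 8 h. The untreated arrays of the genotypes did not overlap for either gene, nor did those at 4 h for Txnip or at 8 h for Slc16a3.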

How the results depend on the processing

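Of the 32 calls on the 7 genes, 32 were kept with the series matrix, a variance trend or the mean of the probes, and 31 without background correction. Each of median scaling, no filter and every probe kept 29, and fitting only the groups compared kept 27. The replicate block kept 30, and the samples share only a number. The probe score kept 15, lost 14 and reversed 3, namely Arrdc4 at 4 h in TAp73+/+ (-0.64), Arrdc4 between untreated genotypes (-0.60) and Slc16a3 between genotypes at 8 h (0.17). The cause was not tested.

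Counts of members called moved as follows. From 4 to 8 h in TAp73-/- the count was 1 with median scaling, no filter, every probe, only the groups compared, the replicate block and the probe score, and 3 without background correction and with the series matrix. Between genotypes at 8 h it was 1 with median scaling, no filter and every probe, 0 with the probe score, and 3 without background correction, with the series matrix, the variance trend and only the groups compared. Between genotypes at 4 h it was 1 without background correction, with only the groups compared and the probe score, and with the stricter filter, where Car9 was not tested. The difference in the 8 h response gave 2 without background correction and with the series matrix, and 0 with only the groups compared. The stricter filter, detection on all 12 arrays, leaves 5 members. It removes Slc16a3, detected on 11 arrays, so the count of 0 there is no test of that call. The difference in the 4 h response gave 0 with only the groups compared and with the probe score. With the probe score the count was 1 at 4 h in TAp73+/+, 0 from 4 to 8 h there and 1 between untreated genotypes, and over all genes the calls fell from 3043 to 16, from 1505 to 5 and from 4175 to 173.

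Leaving out 1 array at a time, the counts ran from 4 to 5 and 3 to 4 at 4 and 8 h in TAp73+/+, and from 3 to 4 and 4 to 4 in TAp73-/-. From 4 to 8 h they ran from 2 to 3 in TAp73+/+ and from 1 to 3 in TAp73-/-. Between the genotypes they ran from 3 to 4 untreated, 0 to 3 at 4 h and 1 to 3 at 8 h, and for the differences in response from 0 to 1 and 0 to 2. Signal over background limits Slc16a3 and Car9, and with 2 arrays a group small changes could not be seen.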
